A study of Mus musculus with 4 samples.

Results

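The genes described here are the cadherins and protocadherins of the mouse, taken as every gene whose symbol is Cdh followed by digits, or Pcdh followed by digits or by a, b, ga, gb or gc and digits. RefSeq listed 91 such genes in the GRCm38 assembly, of which 35 stood alone and 56 belonged to the clustered protocadherin alpha, beta and gamma genes. Of the 13977 PRDM6 binding sites (peaks) in the deposited list, 68 were assigned by the authors to 16 of these genes. The members were chosen by name and not by a measured value, and a family gene with no assigned peak is reported as such.

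The series located PRDM6, a PR domain protein with zinc fingers that is found mainly in smooth muscle cells (SMCs), on the genome of these cells. All samples came from primary SMCs of the outflow tract, the vessel segment that leaves the heart, isolated from mouse embryos late in gestation and infected with a lentivirus that overexpressed FLAG-tagged PRDM6. The groups were PRDM6 ChIP, with 2 libraries made with an anti-FLAG antibody, and Input, with 2 libraries of the same kind of chromatin without the immunoprecipitation, so every sample carried the virus and the tagged protein was not the endogenous one. The study's methods describe such cells as taken from the aortic arch and ductus arteriosus of Prdm6 fl/fl embryos, whereas the labels give no genotype. The study's results and methods state different embryonic ages for these cells, both late in gestation. The study calls the immunoprecipitations independent in one place and drawn from a shared sample in another, so the spread between them may be technical. The data were 1 list of peaks found in both PRDM6 ChIP replicates, each called against its own Input, so no Input value could be set beside a peak. ChIP peaks do not measure expression, and whether the cells expressed a gene named here was not measured in these data.

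Cadherins are calcium-dependent adhesion proteins of the cell surface that bind a cadherin of the neighbouring cell. Type I and type II cadherins are tied to the actin cytoskeleton through catenins, N-cadherin (Cdh2) and cadherin-11 (Cdh11) are known from mesenchymal and smooth muscle cells, and VE-cadherin (Cdh5) from endothelium. Protocadherins are the largest branch of the superfamily. Some are encoded by separate genes, often with a large first exon, whereas the clustered ones lie side by side, with constant exons shared within the alpha and within the gamma genes, and are best known from neurons.

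The strength of a peak is given below as the −log10 p-value of MACS2, the program that called the peaks. The list held this value for each PRDM6 ChIP replicate, called here the first-listed and the second-listed because the list did not say which library was which, and gave the smaller of the pair as the value of the matched peak. The irreproducible discovery rate (IDR) is an estimate, from the ranks in both replicates, of the chance that a peak is not reproducible. The list held 1 matched set of peaks and peaks are not replicates of a condition, so no test was run and shares are given with 95% Wilson intervals, which cover counting error only.

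The sequences around the strongest member summits are shown first, to let the reader compare distal and promoter sites. Each is read from the plus strand of mm10 in a window of 201 bp centred on the summit of the matched peak, and capitals mark an AP-1 motif (TGACTCA or TGAGTCA). They come from the intron of Cdh18 at chr15:23452094-23452294 (−log10 p 17.86), the intron of Pcdh9 at chr14:93758964-93759164 (12.03), the far upstream region of Pcdh18 at chr3:49946732-49946932 (12.76), the far upstream region of Cdh5 at chr8:103913956-103914156 (11.19) and the promoter of Pcdh18 at chr3:49757372-49757572 (11.12).
Cdh18 intron: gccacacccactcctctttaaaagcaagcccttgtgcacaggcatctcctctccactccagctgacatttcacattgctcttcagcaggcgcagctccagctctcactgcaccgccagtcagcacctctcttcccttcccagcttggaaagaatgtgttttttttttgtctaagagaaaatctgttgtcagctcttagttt
Pcdh9 intron: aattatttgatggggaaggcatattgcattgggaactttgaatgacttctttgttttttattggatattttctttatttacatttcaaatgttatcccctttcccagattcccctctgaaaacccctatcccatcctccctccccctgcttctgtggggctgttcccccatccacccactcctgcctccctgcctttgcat
Pcdh18 upstream: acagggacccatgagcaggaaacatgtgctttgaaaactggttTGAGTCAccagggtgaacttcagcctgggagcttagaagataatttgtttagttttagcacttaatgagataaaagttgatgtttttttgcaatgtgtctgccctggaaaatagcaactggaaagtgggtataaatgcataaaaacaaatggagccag
Cdh5 upstream: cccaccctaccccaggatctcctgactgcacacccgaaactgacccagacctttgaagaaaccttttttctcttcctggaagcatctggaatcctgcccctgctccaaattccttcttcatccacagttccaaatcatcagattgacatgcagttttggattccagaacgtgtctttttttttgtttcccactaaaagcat
Pcdh18 promoter: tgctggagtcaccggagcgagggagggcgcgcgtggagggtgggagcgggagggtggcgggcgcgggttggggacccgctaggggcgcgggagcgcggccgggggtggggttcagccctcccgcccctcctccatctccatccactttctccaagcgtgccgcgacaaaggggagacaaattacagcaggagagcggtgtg

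Only 1 of these 5 windows, that upstream of Pcdh18, held an AP-1 motif, and none held a TEAD motif. The promoter window of Pcdh18 was 71.1% G and C, against 39.8% to 49.3% in the other 4 windows. In the reference, 79.1% of the window in Pcdh9 and 36.3% of that in Cdh18 were marked as repeats, and the part that repeats played in these peaks was not tested.

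**Figure D1:**
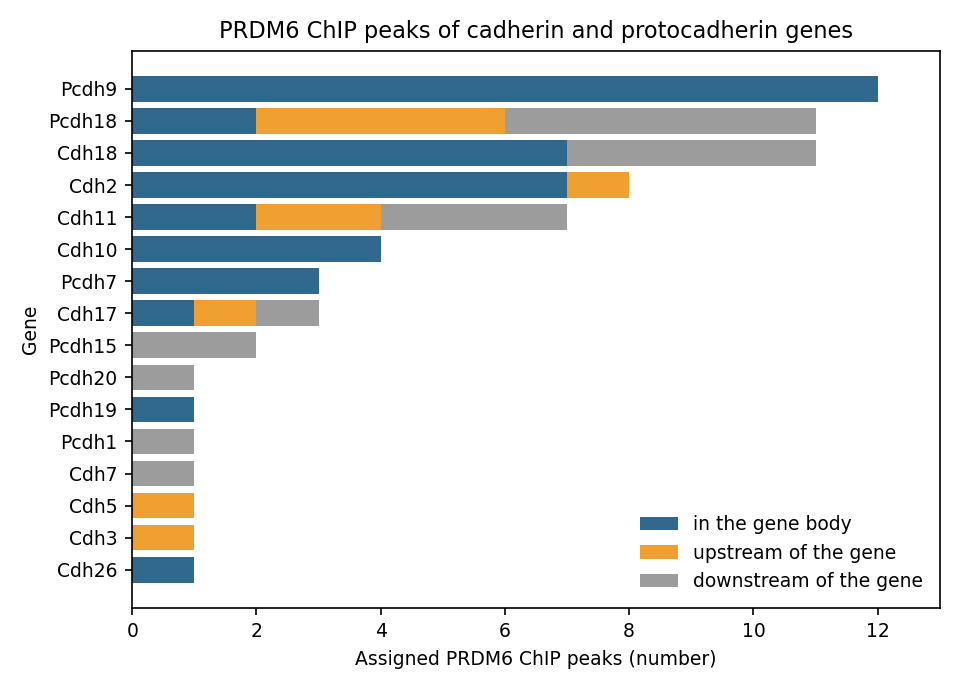
Number of PRDM6 ChIP peaks assigned to each of the 16 genes with a peak (horizontal axis) by where the peak lay relative to the RefSeq gene. Pcdh9 had 12 peaks, all inside the gene, whereas 9 of the 11 peaks of Pcdh18 lay outside it.

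The assigned peaks were spread unevenly over the 16 genes. The share of all listed peaks on genes with 5 or more is not given here, so the spread has no baseline. Pcdh9 had 12 peaks, Cdh18 and Pcdh18 had 11 each, Cdh2 had 8 and Cdh11 had 7, so that 5 genes held 49 of the 68 peaks. Cdh10 had 4, Cdh17 and Pcdh7 had 3 each, Pcdh15 had 2, and the other 7 genes had 1. Among all 21627 protein-coding genes of RefSeq, 20.2% had an assigned peak and 2.99% had 5 or more. The whole family stood at 16 of 91 genes (17.6%), but this joined 35 separate genes with 56 clustered ones. Many of the clustered genes overlap or are short, so they are not separate chances for a peak.

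By subfamily, 2 of 5 type I cadherins had an assigned peak (Cdh2 and Cdh3), as did 5 of 13 type II cadherins (Cdh5, Cdh7, Cdh10, Cdh11 and Cdh18), 2 of 5 other Cdh genes (Cdh17 and Cdh26), 5 of 9 delta protocadherins (Pcdh1, Pcdh7, Pcdh9, Pcdh18 and Pcdh19), 2 of 3 other protocadherins (Pcdh15 and Pcdh20) and none of the 56 clustered ones. The 35 genes outside the clusters were long, with a median of 123 kb against 17.3 kb over all protein-coding genes, and long genes offer more room for a peak. Of the 16 that were up to 100 kb long, 7 had a peak (43.8%), against 15.7% of 19201 protein-coding genes in that class, but the members were the longer ones, with a median of 34.5 kb against 14.3 kb. A peak lay in the body of 3 of the 16, against 9.18% of the class. Of the 19 longer ones, 9 had a peak (47.4%), against 56.6% of 2426, and here too the members were longer, with a median of 393 kb against 172 kb.

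Long members did not all carry peaks inside the gene. A peak overlapped the body of 11 of the 35 genes, against 14.2% of all protein-coding genes, most of which are shorter. Among genes longer than 100 kb the order was the other way, with 8 of 19 members against 54.1% of all protein-coding genes of that length. Summed over the 19 members longer than 100 kb, the gene bodies held 42 peaks, or 0.445 per 100 kb, against 0.718 per 100 kb over all protein-coding genes of that length. Of the 10 members longer than 300 kb, 4 held a peak in the body and 6 held none, against 63.8% of 556 protein-coding genes of that length with one. Among these was Cdh13, T-cadherin, a lipid-anchored cadherin known from the vessel wall, with no peak in 1185 kb. The others were Pcdh15 (1554 kb), Pcdh11x (620 kb), Cdh4 (457 kb), Cdh23 (394 kb) and Cdh8 (393 kb). Cdh12, with 1150 kb, held 1. Cdh6 and Cdh1 (E-cadherin, the cadherin of epithelium) had neither an assigned peak nor one in the body. Absence from this list does not show that a gene was unbound, since a peak had to be called in both replicates to enter it.

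**Figure D2:**
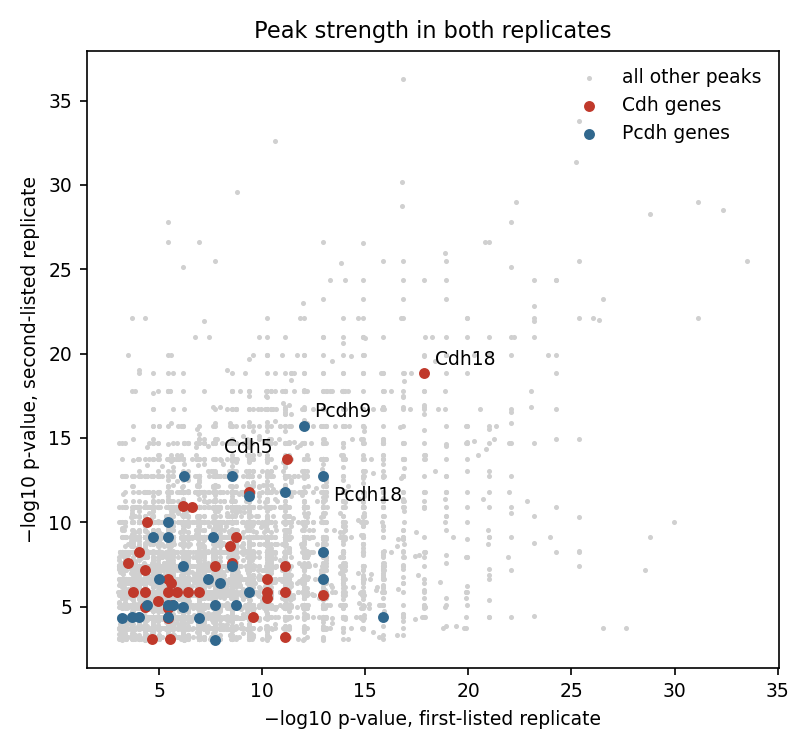
−log10 p-value of each peak in the first-listed (horizontal axis) and the second-listed replicate (vertical axis), with Cdh genes in red, Pcdh genes in blue and the other 13909 peaks in grey. The peak in Cdh18, at 17.86 and 18.83, stands above all other member peaks in both replicates.

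The member peaks were of ordinary strength for this list. Their median −log10 p was 5.42 (quartiles 4.39 and 6.61, range 3.03 to 17.86), against 5.53 over all peaks (quartiles 4.39 and 6.92). In the first-listed replicate the median was 6.5 against 6.92, and in the second-listed replicate 6.12 against 6.61. The first-listed value was the higher one at 35 of 68 member peaks (51.5%), against 52.1% of all peaks. A global IDR of at most 0.05 was reached by 2 member peaks (2.94%, interval 0.81% to 10.1%), against 3.33% of all peaks, and 31 had the lowest score of the list (45.6%, 34.3% to 57.3%), against 41.4%. The score is a scaled IDR on which 48 is the lowest value and 540 stands for a global IDR of 0.05.

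The list gave no read totals, but many p-values were exact upper tails of a Poisson distribution with a fixed background mean, from which the height of the peak in fragments could be read back. This held for 40 of the 68 member values in the first-listed replicate, at a mean of 2.61 fragments, and for 46 in the second-listed replicate, at a mean of 2.39. Among these, member peaks were 10 to 26 fragments high in each replicate, with medians of 15.5 and 13, against 14 and 13 over all peaks. Values of the remaining peaks did not fall on this series and gave no height, and the reason was not tested. Counting error at the heights found limits comparisons between member peaks.

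Cdh18, a type II cadherin known mainly from the nervous system, held the strongest member peak. It lay at chr15:23451744-23452732 in intron 10 of 11 of one transcript, 903.3 kb from the gene start and close to the 3′ end of a gene of 929 kb. Its −log10 p was 17.86 in the first-listed and 18.83 in the second-listed replicate, with a height of 26 fragments in both, and its score of 1000 is the highest the list allows. By −log10 p it ranked 51 of 13977.

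The other 10 peaks of Cdh18 were weaker, with −log10 p from 3.09 to 8.44. In the 5′ part of the gene, peaks stood 16.1 kb (8.44), 349.4 kb (7.56) and 431.8 kb (4.39) from its start, all in intron 1 of a transcript. A group near the 3′ end stood at 867.9 kb (6.15), 869.7 kb (4.04) and 878.3 kb (4.90), short of the strongest peak. The last 4 peaks lay past the gene, from 34721 bp to 332634 bp beyond its end, with −log10 p from 3.09 to 5.84. A further 2 peaks in the body of Cdh18 had been assigned to the pseudogene Hnrnpa1l2-ps2, with −log10 p of 8.52 and 5.69.

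Pcdh9, a delta protocadherin expressed chiefly in brain, had the most assigned peaks as deposited and the other member peak under the IDR limit. That peak lay at chr14:93758633-93759786 in intron 2 of 4, 133.8 kb from the gene start. Its −log10 p was 12.03 in the first-listed and 15.72 in the second-listed replicate, 20 and 23 fragments high, and its score was 567, just inside the limit. The 12 peaks of Pcdh9 were spread from 3.5 kb to 830.4 kb of a gene of 879 kb, and 8 of them lay in intron 2. Apart from the strongest peak their −log10 p ran from 3.03 to 7.59. When peaks of a gene less than 1 kb apart were joined, Pcdh9 had 10 sites, fewer than the 11 each of Cdh18 and Pcdh18. At the 5′ end, a peak 849 bp past one transcript start had 7.36 in the first-listed and 6.61 in the second-listed replicate, and a peak 242 bp before another had 5.42 and 9.10.

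**Figure D3:**
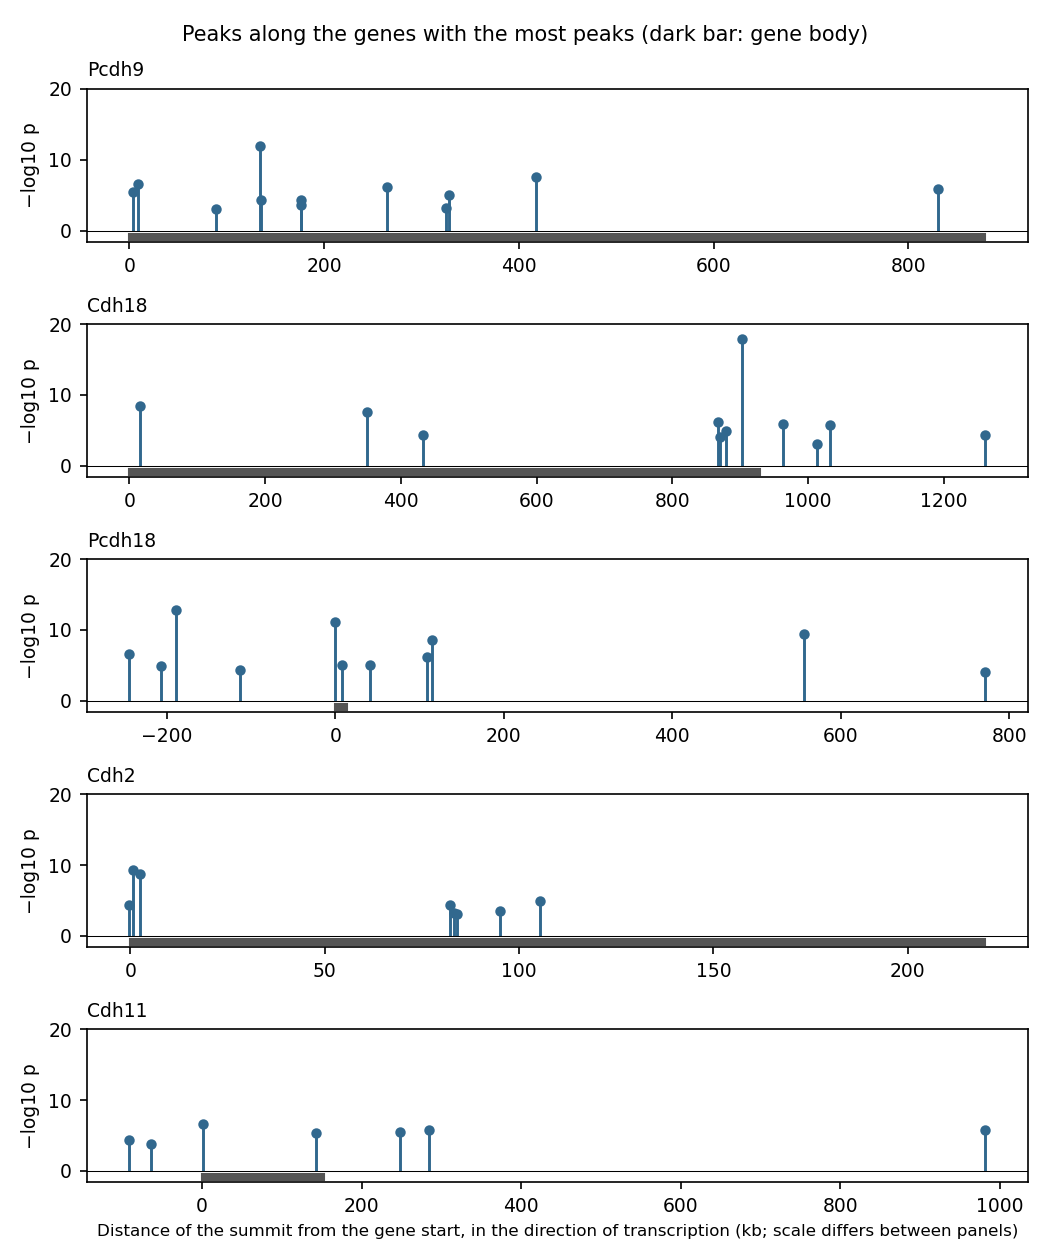
Position of each assigned peak relative to the start of its gene (horizontal axis, kb, in the direction of transcription, on a scale of its own in each panel) and its −log10 p (vertical axis) for the 5 genes with the most peaks; dark bars are the RefSeq gene bodies. Peaks of Pcdh9 lie within the gene, those of Pcdh18 on both sides of a short gene, and those of Cdh2 in 2 groups, at the start and from 82.1 kb to 105.3 kb.

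Pcdh18, a delta protocadherin, differed in layout from Pcdh9. The gene is 14.1 kb long, and its 11 peaks ranged from 244.6 kb upstream to 771.8 kb downstream of the gene start, with 2 in the gene, 4 upstream and 5 downstream. The promoter peak at chr3:49756936-49757980 overlapped the TSS and had −log10 p of 11.12 and 11.81 in the first- and second-listed replicate, 19 fragments high in each. Its score was 429.

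The strongest peak of Pcdh18 lay 189.4 kb upstream, at chr3:49946351-49947222, with −log10 p of 12.95 and 12.76, heights of 21 and 20 fragments and a score of 533, just outside the IDR limit. By the authors' annotation this peak and its neighbour 207.5 kb upstream (4.98) were in the last intron of a long Slc7a11 transcript, a gene for a cystine transporter. The RefSeq model of Slc7a11 did not reach them, and Pcdh18 was the nearest protein-coding gene of RefSeq. The peak 244.6 kb upstream (12.95 in the first-listed and 6.61 in the second-listed replicate) was annotated to exon 1 of 2 of a Gm37854 transcript. Downstream, the peaks at 114.5 kb (8.52), 108.6 kb (6.21) and 555.9 kb (9.37) were the strongest. The replicates disagreed most at the peak 113.3 kb upstream, with −log10 p of 15.85 in the first-listed and 4.39 in the second-listed replicate.

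Cdh11, cadherin-11 of mesenchyme, had 7 peaks with −log10 p from 3.75 to 6.59, none under the IDR limit. The strongest, at chr8:102783848-102785134, lay 508 bp past the TSS with 6.59 in the first-listed and 10.89 in the second-listed replicate and 63.2% G and C around the summit. Another lay in intron 11 of 12 (5.42 and 5.84). Upstream, peaks stood 63355 bp (3.75 and 5.84) and 90349 bp (4.32 and 4.98) from the gene. Downstream, they stood 94004 bp (10.23 and 5.53), 131046 bp (10.23 and 5.84) and 828345 bp (6.92 and 5.84) from it, so the first-listed value was the higher one at all 3 downstream peaks and the lower one at the other 4.

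Cdh10, a type II cadherin, had 4 peaks, all inside the gene, with −log10 p from 4.98 to 5.84, close to the median of the list. One overlapped the TSS of a transcript (5.42 in the first-listed and 4.98 in the second-listed replicate) and the next began 576 bp past it (5.56 and 6.39). The others were in introns 2 and 8 of 11, and the latter had 11.12 and 5.84.

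The single peak of Cdh5, the endothelial cadherin, lay 187.6 kb upstream of the gene at chr8:103913821-103914168. It was the fourth strongest member peak, with −log10 p of 11.19 and 13.73 and a score of 495. That of Cdh3, P-cadherin, lay 4.6 kb upstream of the gene (4.39 and 9.98), and 67.7% of the sequence around its summit was repeat. That of Cdh7 lay 501.5 kb from the gene start, past the gene (11.12 and 7.42), and that of Cdh26 in intron 3 of 13 (10.23 and 6.61). Of the 3 peaks of Cdh17, a cadherin of intestine, the strongest was in intron 1 of 17 (7.71 and 7.42).

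Pcdh7, a delta protocadherin, had a peak over the TSS of a transcript, at chr5:57719255-57720254 (8.52 in the first-listed and 7.42 in the second-listed replicate). Its other assigned peaks were in intron 1 at 40.0 kb (8.75 and 5.10) and 183.2 kb (6.92 and 4.31) from the gene start. A broad peak at the RefSeq start of Pcdh7, chr5:57715995-57718575 (5.42 and 9.23), had been assigned to the neighbouring transcript 4932441J04Rik, and 2 peaks towards the end of the gene to 4930459L07Rik (10.23 and 6.61, and 6.15 and 5.84). Counting by gene body, Pcdh7 therefore held 6 peaks. The peaks of Pcdh15 lay 30081 bp and 31877 bp past that gene (12.95 and 8.25, and 7.71 and 5.10). That of Pcdh20 was 153610 bp past the gene, in an intron of Gm33203 (7.95 and 6.39), and that of Pcdh19 in its last intron (5.42 and 9.98).

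Motifs of the transcription factors AP-1 and TEAD were searched for at the member summits because the study found both overrepresented in these peaks. Their shares over all peaks are therefore no independent evidence for either motif. AP-1 is a dimer of Jun and Fos proteins, and TEAD proteins are the DNA-binding partners of Yap and Taz. An AP-1 motif lay wholly within 100 bp of 8 of 68 member summits (11.8%, interval 6.08% to 21.5%), against 14.3% of all summits. In flanking windows centred 1000 bp from the summit with as many positions in total, it was found at 7 member peaks (10.3%, 5.08% to 19.8%), against 3.96% of all peaks. A TEAD motif (AGGAATGC, AGGAATGT, GGGAATGC or GGGAATGT on either strand) lay at 6 member summits (8.82%, 4.11% to 17.9%), against 7.45%, and in the flanks of 3 (4.41%, 1.51% to 12.2%), against 3.23%. These shares depended on which replicate gave the summit. With the summits of the second-listed replicate alone the TEAD share of members was 2.94%, and with those of the first-listed replicate alone the AP-1 share was 7.35%. Either motif was found at 19.1% of member summits, against 20.7% of all summits, and at neither of the member peaks under the IDR limit.

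The AP-1 sites at member summits other than the one printed above are shown so that their surroundings can be compared. Each is read from the plus strand of mm10 with 20 bases on either side of the motif, which is in capitals. They lie at chr15:22565112-22565158 and chr15:23416901-23416947 (Cdh18), chr1:110483632-110483678 (Cdh7), chr3:50001873-50001919 (Pcdh18), chr14:93889328-93889374 and chr14:93717135-93717181 (Pcdh9) and chr8:102876412-102876458 (Cdh11). The last line, at chr14:93717047-93717094, is the TEAD motif of the only member summit that had both.
Cdh18 intron 1: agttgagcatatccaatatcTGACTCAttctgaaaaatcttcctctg
Cdh18 intron 8: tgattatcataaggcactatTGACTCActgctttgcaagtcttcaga
Cdh7 downstream: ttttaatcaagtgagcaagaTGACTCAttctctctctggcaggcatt
Pcdh18 upstream: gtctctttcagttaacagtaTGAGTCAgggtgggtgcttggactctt
Pcdh9 promoter: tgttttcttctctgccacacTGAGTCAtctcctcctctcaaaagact
Pcdh9 intron 2: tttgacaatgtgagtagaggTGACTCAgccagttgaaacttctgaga
Cdh11 upstream: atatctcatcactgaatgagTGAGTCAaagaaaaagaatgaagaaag
Pcdh9 intron 2, TEAD: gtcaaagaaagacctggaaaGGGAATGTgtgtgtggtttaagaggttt

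The 8 AP-1 motifs stood 25 bp to 96 bp from the summit. The 7 printed in this set belonged to peaks with −log10 p from 4.32 to 8.44, below the peak upstream of Pcdh18 at 12.76. The motif of Cdh18 intron 1 lay just past the end of the peak as deposited. The TEAD motifs stood 14 bp to 92 bp from the summit, in introns of Cdh2, Cdh11, Cdh18, Pcdh7 and Pcdh9.

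**Figure D4:**
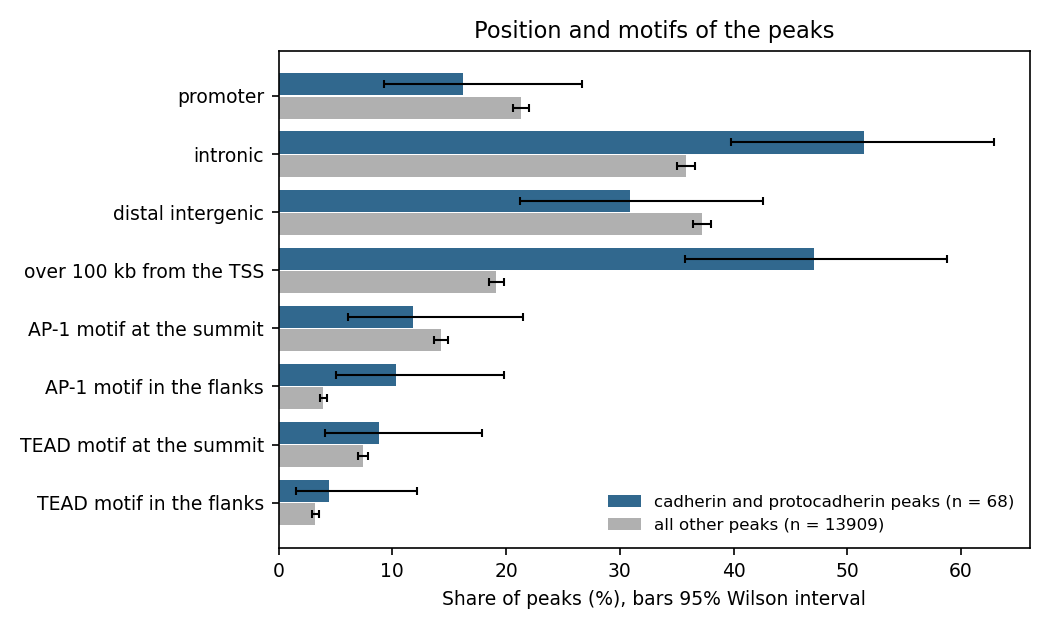
Share of peaks (horizontal axis, %) in each class of position or with each motif, for the 68 peaks of cadherin and protocadherin genes and the other 13909 peaks; error bars are 95% Wilson intervals. Member peaks were over 100 kb from the TSS in 47.1% of cases, against 19.1% of the other peaks.

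Member peaks were often far from a start site. By the authors' annotation 32 of 68 (47.1%, interval 35.7% to 58.8%) lay more than 100 kb from the TSS, against 19.3% of all peaks. Among peaks of genes longer than 100 kb, this share was 44.9% for members and 20.1% over all, and genes were not matched for length within this class. The 32 peaks came from 8 genes, with 9 each from Cdh18 and Pcdh9 and 8 from Pcdh18, and 15 of them lay inside the gene they were assigned to. Distances run to the nearest annotated transcript start, which for many peaks, such as those in the 3′ part of Cdh18, is not the start of the gene. Of all 68 peaks, 40 lay in the body of their own gene, 10 upstream and 18 downstream of it, and for all 68 the assigned gene was the nearest protein-coding gene of RefSeq.

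By class, 35 member peaks were intronic (51.5%, 39.8% to 62.9%), against 35.9% of all peaks, 31 of them in an intron of their own gene. Distal intergenic peaks made up 30.9% (21.2% to 42.6%), against 37.2%, and promoter peaks 16.2% (9.28% to 26.7%), against 21.3%. A peak overlapped a TSS in 4 cases (5.88%), at Cdh2, Cdh10, Pcdh7 and Pcdh18, against 6.64% of all peaks. Chromosome 15 held 22.1% of the member peaks and 6.17% of all peaks. Its member peaks were all those of Cdh18 and Cdh10, and Cdh6, Cdh9 and Cdh12 on this chromosome had no assigned peak. Sequence around member summits had a median of 40.5% G and C, against 43.8% over all peaks, and was more than 50% repeat at 14.7% of member summits, against 7.81%.

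N-cadherin (Cdh2), the type I cadherin of mesenchyme and smooth muscle, had 8 peaks on chromosome 18 in 2 groups. At its 5′ end, 3 peaks followed each other within 340 bp and 396 bp. The middle one, chr18:16807570-16808984, overlapped the TSS of a transcript and was the strongest, with −log10 p of 9.37 in the first-listed and 11.81 in the second-listed replicate and heights of 17 and 19 fragments. Its neighbour inside the gene had 8.75 and 9.10, and that just upstream of the main TSS had 4.33 and 7.14. These sites had 60.7% to 75.1% G and C.

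The other 5 peaks of Cdh2 lay in intron 2, from 82.1 kb to 105.3 kb past the gene start, and were weak, with −log10 p from 3.09 to 4.95. In this group 3 peaks were only 261 bp and 161 bp apart, and at the middle one, whose summit window was 91.0% repeat, the replicates had 11.12 and 3.19. Another peak within 1 kb was found for 15 of the 68 member peaks (22.1%, 13.8% to 33.3%), against 25.9% of all peaks. When peaks of a gene less than 1 kb apart were joined, the 8 peaks of Cdh2 became 4 sites and the 68 member peaks 60.

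No peak was assigned to any of the 56 clustered protocadherin genes that the naming rule covers, against 20.2% of all protein-coding genes with one. Of the 56, 25 were longer than 100 kb, a class in which 56.6% of all protein-coding genes had one. The bodies of 12 Pcdha genes held the same 3 peaks, which the authors assigned to Pcdhac2, a gene of the cluster whose symbol the rule leaves out. One was intronic (4.04 in the first-listed and 7.42 in the second-listed replicate), and 2 were in the 3′ untranslated region (5.00 and 5.10, and 7.95 and 8.25). The Pcdhb, Pcdhga, Pcdhgb and Pcdhgc genes held none. Thus 12 of the 56 bodies held a peak, against 14.2% of all protein-coding genes, but the 12 overlap and are not separate cases. Pcdh1, on the same chromosome, had 1 peak 31410 bp past the gene (4.71 and 9.10).

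Partners of cadherins at the junction were counted alongside. Of 19 catenin and junction genes, 12 had an assigned peak, 58 in all, against 20.2% of all protein-coding genes and 56.6% of those longer than 100 kb. Several genes of this list are long, such as Ctnna3 (1574 kb), Ctnna2 (1098 kb) and Ctnnd2 (857 kb). Ctnnd2, delta-catenin, had 10, and 1 of these was the only one of the 58 under the IDR limit (17.86 in the first-listed and 16.94 in the second-listed replicate). Vcl, vinculin, and Nectin3 had 8 each, Ctnna1, the alpha-catenin that links cadherins to actin, and Ctnna2 had 7 each, Ctnnd1, p120-catenin, had 6, and Ctnnb1, beta-catenin, had 1 (7.17 and 5.10). Of 24 other genes of the cadherin superfamily, 8 had a peak, against the same 20.2% of all protein-coding genes, and 2 had 5 or more, against 2.99%. They had 30 peaks in all, with 14 at the giant cadherin Fat1 (strongest 15.85 and 10.89) and 7 at Fat4. The IDR limit was met by none of these 30 peaks and by 1 of the 58 above, against 3.33% of all peaks, which is too few peaks to read a difference from.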

How the data were processed

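Per the labels and the study's methods, chromatin of the 4 samples was digested with micrococcal nuclease and sonicated, and the authors aligned paired reads to mm10 with BWA at a mapping quality of at least 13. They called peaks in each replicate against its own input with MACS2 at a p-value limit of 0.001. The layout of the deposited list is that of replicates matched by IDR. The deposited list gave −log10 p-values, −log10 IDR values and a scaled IDR score, and its signal and q-value columns held only a placeholder. A column that the annotation heads as a q-value held the second-listed replicate's −log10 p-value again. Distances and region classes are the authors', from a tool not given in the sources used here. Gene bodies came from RefSeq (GRCm38.p6), strands from GENCODE M21 and sequence from the GRCm38 genome, which is the mm10 build.

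A motif counted if it lay wholly within 100 bp of the matched summit. Heights came from the Poisson tail above each height, within 0.0002. Motif search and heights were tested on simulated data. Named with values were genes with 5 or more peaks, an IDR of at most 0.05 or a TSS peak, and Cdh1, Cdh2, Cdh3, Cdh5, Cdh6, Cdh11 and Cdh13. Others with a peak were named after their values were seen. Members, lists and alternatives were chosen with earlier results of these data known. Tools were samtools 1.23.1, pysam 0.24.0, matplotlib 3.10.9, SciPy 1.17.1, pandas 2.3.3, NumPy 2.4.6 and Python 3.11.15.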

Additional observations from a re-analysis of the deposited data

How the results depend on the processing

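At a global IDR of at most 0.05, 2 member peaks in 2 genes were left, and at 0.01, 1 peak in 1 gene. With the 2 peaks, 0% were distal intergenic, 100% were over 100 kb from the TSS, 0% had an AP-1 motif and 0% a TEAD motif at the summit, the last an alternative chosen after seeing the data. Only 36 peaks, of 13 genes, lay within 100 kb of the TSS. By overlap with a gene body, 49 peaks fell in 23 genes, 12 of which are Pcdha genes that share 3 peaks. Joining peaks less than 1 kb apart, chosen after seeing the data, left 60. With either replicate alone the median strength was 6.12 to 6.5, above the matched 5.42, since a matched peak takes the smaller value. The AP-1 share was 4.41% within 50 bp and 30.9% within 250 bp of the summit, and 7.35% to 11.8% with the summits of one replicate. The TEAD share was 4.41% within 50 bp and 16.2% within 250 bp, and 2.94% to 8.82% with the summits of one replicate. No paired analysis was possible because the list gave matched peaks with no value of the Input group and results came from no test.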
